A study of Mus musculus with 9 samples.

Results

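All 9 libraries of the series were set against each other in a single contrast, 6 libraries of GFP-positive mouse oocytes against 3 libraries of RFP oocytes. The GFP-positive arm joined the 3 GFP High and the 3 GFP Low libraries, and membership followed the group label of each library. Every oocyte was a metaphase II (MII) oocyte, the ovulated egg that waits for fertilisation at the second meiotic division. The females were 4 weeks old, of mixed genetic background and of 1 genotype, Sycp3CreERT2/+; Rosa26nT-nG/+. Controls and GFP-positive oocytes therefore came from females with the same Cre and reporter alleles, and whether from the same females is not given in the sources used here. The contrast asked what else differed between eggs whose reporter had recombined and eggs whose reporter had not. Sycp3CreERT2 makes the tamoxifen-dependent recombinase CreERT2 from the locus of Sycp3, a gene of the meiotic chromosome axis. Rosa26nT-nG makes red nuclear tdTomato until Cre removes that cassette, and green nuclear eGFP from then on. The dose and timing of tamoxifen were not given in the sources used here. Females received 5 IU of PMSG and, 48 h later, 5 IU of hCG, and eggs were taken from the oviduct another 13 h on. Hyaluronidase stripped the cumulus cells, and the eggs were sorted by hand for green and red light under a microscope.

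Each library was a pool. GFP High pools held 15, 15 and 16 oocytes, GFP Low pools 49, 52 and 57, and RFP pools 87, 88 and 100, so pool size and group cannot be told apart. The labels do not say that replicates came from separate animals, and the p-values below measure the spread between these libraries, which may be technical.

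A fully grown oocyte makes almost no new RNA. The egg lives on messages that it stored while its follicle grew, and it translates and destroys them in a fixed order through maturation and after fertilisation. Because Cre recombines DNA, the switch from red to green is permanent, and a green egg carries the mark of Cre activity at an earlier stage of its own development. Poly-A RNA was sequenced, so a message whose tail has been shortened can be captured less well even where the molecule persists.

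Library totals lay between 19381677 and 27746256 counts, and 15857 genes had enough counts to test. Levels are given as CPM, a gene's reads relative to the library total after TMM scaling, as mean ± SD over 6 GFP-positive and 3 RFP libraries, and log2 fold changes are GFP-positive minus RFP. The 12 oocyte markers (Zp1, Zp2, Zp3, Gdf9, Bmp15, Mos, Nlrp5, Ooep, Dppa3, Figla, Zar1, Npm2) summed to between 9023 and 10829 CPM in the GFP-positive libraries and between 9219 and 9363 CPM in the RFP libraries. Of 33 cumulus and granulosa markers, 24 could be tested, and their summed level ranged from 163 to 315 CPM in GFP-positive and from 181 to 306 CPM in RFP libraries. Most of that sum came from Nr5a2, Fn1 and Cyp19a1. Within each group the sum was highest in GFP High 1, GFP Low 1 and RFP 2, at 315, 243 and 306 CPM. These libraries held 7.20, 6.66 and 10.9 CPM of Tnfaip6, a marker of expanded cumulus. Tnfaip6 stood at 1.06 CPM in RFP 1 and lay between 0 and 0.541 CPM in the other 5 libraries. Each arm thus held at least 1 library with cumulus RNA, and fewer cumulus cells and less RNA per cell cannot be told apart in a pool.

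The 2 reporters checked the labels. The RFP libraries had 0, 8 and 16 counts of eGFP, the GFP Low libraries 282, 440 and 662, and the GFP High libraries 986, 1081 and 869. In CPM this was 29.1 ± 12.3 (SD, n = 6) for green against 0.315 ± 0.299 (SD, n = 3) for red. edgeR's quasi-likelihood test gave a log2 fold change of 6.51 (SE 0.63) and an adjusted p of 2.37e-04. The 6 GFP-positive libraries stood above the 3 RFP libraries. The fold change was 5.91 without RFP 1 and 7.42 without RFP 3, and in limma-voom the adjusted p was 0.994. Since oocytes were sorted on the light of this reporter, its difference describes the sort. GFP High libraries held 39.7 ± 4.01 CPM (SD, n = 3) and GFP Low libraries 18.4 ± 4.87 CPM (SD, n = 3), a log2 difference of 1.11 (SE 0.38, unadjusted p = 0.0128, adjusted p = 0.647 in the edgeR fit of 3 groups). In the authors' DESeq2 results for this pair the adjusted p of eGFP was 0.00918.

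tdTomato was a rare message throughout. The RFP libraries had 94, 57 and 46 counts of it, the GFP Low libraries 16, 20 and 35, and the GFP High libraries 2, 0 and 2. Its level was 0.503 ± 0.521 CPM (SD, n = 6) in GFP-positive and 2.59 ± 0.924 CPM (SD, n = 3) in RFP libraries, and the groups did not overlap. The log2 fold change of -2.35 (SE 1.00) did not pass edgeR's threshold over all genes (unadjusted p = 0.0328, adjusted p = 1.00). Per length, on the authors' FPKM scale, eGFP averaged 40.3 ± 17.2 (SD, n = 6) in the GFP-positive libraries, while tdTomato averaged 1.77 in the RFP libraries.

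The share of reporter counts that were eGFP was taken for each pool. It was 99.8% (exact 95% binomial interval 99.3% to 100%) in GFP High 1, 100% (99.7% to 100%) in GFP High 2 and 99.8% (99.2% to 100%) in GFP High 3. In the GFP Low pools it was 94.6% (91.4% to 96.9%), 95.7% (93.4% to 97.3%) and 95% (93.1% to 96.5%). RFP 1 held 0 of 94 reporter counts as eGFP (0% to 3.85%), and a limit of 3 counts there corresponds to 3.19%, whereas RFP 2 stood at 12.3% (5.47% to 22.8%) and RFP 3 at 25.8% (15.5% to 38.5%). Thus 2 of the 3 red pools held some green message, and in the GFP Low pools a few percent of reporter counts were tdTomato. As eGFP was by far the more abundant message, this share does not measure how mixed a pool was. tdTomato was at 0.951 ± 0.272 CPM (SD, n = 3) in GFP Low against 2.59 ± 0.924 CPM (SD, n = 3) in RFP libraries. eGFP was at 0.594 CPM in RFP 3 against 29.1 ± 12.3 CPM (SD, n = 6) in GFP-positive libraries. These intervals cover counting error only.

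**Figure D1:**
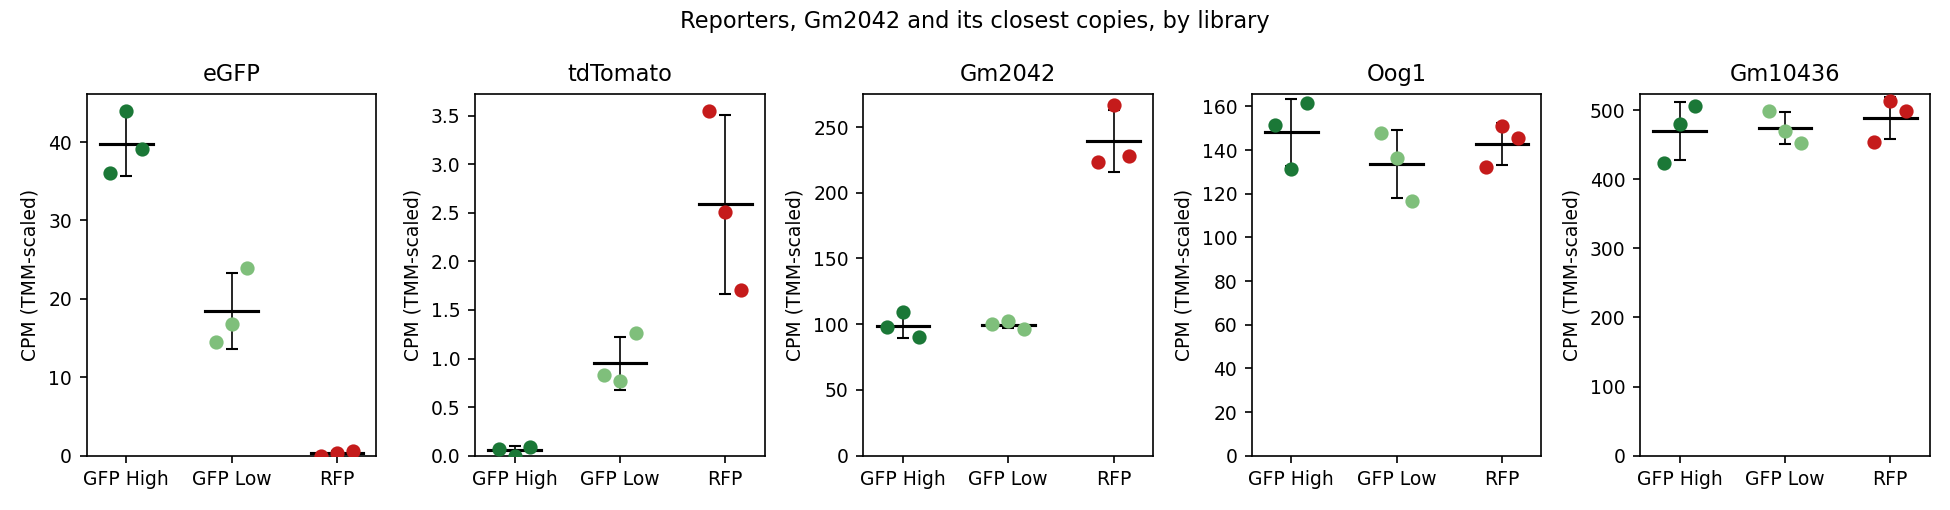
Level of eGFP, tdTomato, Gm2042, Oog1 and Gm10436 in CPM (vertical axes, each from 0) in GFP High, GFP Low and RFP libraries; each point is a library, the bar is the mean of 3 and the whiskers are the SD. eGFP falls from GFP High to GFP Low to RFP, whereas Gm2042 is at about 99 CPM in both GFP groups and at 223 to 267 CPM in RFP, and its near copies Oog1 and Gm10436 overlap between groups.

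Past the reporters, 1 endogenous gene passed edgeR's adjusted p of 0.05 between green and red eggs. Of 15857 genes, 2 passed an adjusted p of 0.05 in edgeR (0.0126%). One was higher in GFP-positive oocytes (0.00631%), and that was eGFP itself. The other was lower (0.00631%), and that was Gm2042, a PRAME-like oogenesin gene. At an unadjusted p under 0.05 there were 206 genes (1.3%). Without the filter on low counts 21 genes were called, with the DESeq2 Wald test 5 and with limma-voom 1, and Gm2042 was among them each time. Groups that did not overlap were found for 219 genes (1.38%), 88 of them higher (0.555%) and 131 lower (0.826%) in GFP-positive oocytes.

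For well-expressed genes the absence of calls came with narrow intervals. Of the 6065 genes at 20 CPM or more on average, 6033 (99.5%) had a 95% interval of their fold change that lay wholly within 2-fold in either direction. The median half-width of that interval was 0.27 on the log2 scale, or 1.2-fold, and above 100 CPM it was 0.19, or 1.14-fold. Only 3 genes at 20 CPM or more had an estimate beyond 2-fold and 11 beyond 1.5-fold. Rarer messages were much less certain: between 1 and 5 CPM the median half-width was 2.44-fold and 8.36% of 3564 genes had an interval within 2-fold. Below 1 CPM none of 3049 genes did. For 56.2% of all genes tested, then, the interval lay within 2-fold. For the rest it reached beyond 2-fold on at least 1 side, as it did for eGFP and Gm2042.

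**Figure D2:**
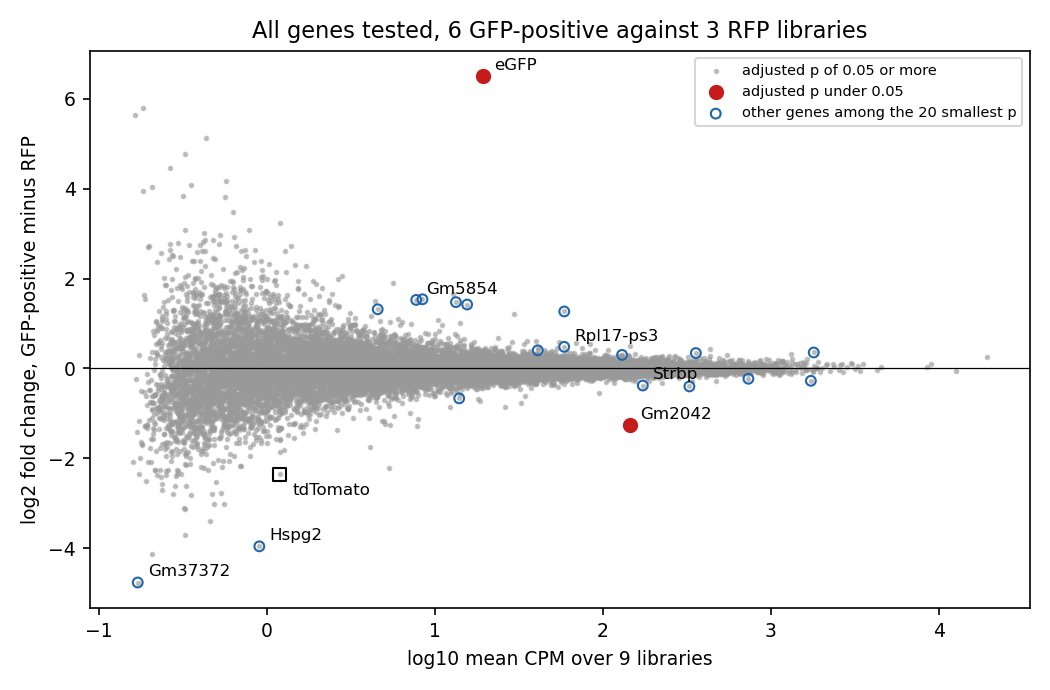
Log2 fold change, GFP-positive minus RFP (vertical axis), against log10 of the mean CPM over 9 libraries (horizontal axis) for the 15857 genes tested in edgeR. Filled red points are the 2 genes past an adjusted p of 0.05, open blue circles the other genes among the 20 smallest p and the black square is tdTomato; the cloud narrows to the right and Gm2042 lies below it.

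Gm2042 (ENSMUSG00000096276) is a protein-coding gene at chr12:87954080-87960683 on the plus strand of GRCm38. Oogenesins are leucine-rich repeat proteins of the PRAME family, encoded by tandem and dispersed copies that are expressed mainly in germ cells, and the first of them was named for its appearance in oocytes. Gm2042 is one of a handful of nearly identical copies on chromosome 12, which matters for how its reads were assigned. Its closest relative in sequence is Oog1 (ENSMUSG00000096576, chr12:87602688-87608850, plus strand). Gm10436 (ENSMUSG00000066027, chr12:88175589-88182108, minus strand) is the next. The coding sequences of Gm2042 and Oog1 differed by 1 substitution over 1488 bases, and those of Gm2042 and Gm10436 by 10 over 1485 aligned bases, beside 78 bases in gaps. The stretch below, 90 coding bases from exon 4 of 4 in each gene's first GENCODE transcript, holds the base that tells Gm2042 from Oog1 and one that sets Gm10436 apart. Capitals mark the positions where the 3 genes differ. The stretches lie at chr12:87960187-87960276 (plus), chr12:87608356-87608445 (plus) and chr12:88175995-88176084 (minus), all on GRCm38.
Gm2042: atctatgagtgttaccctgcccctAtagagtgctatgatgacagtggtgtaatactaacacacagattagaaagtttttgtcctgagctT
Oog1: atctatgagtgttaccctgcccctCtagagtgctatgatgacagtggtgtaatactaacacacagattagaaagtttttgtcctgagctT
Gm10436: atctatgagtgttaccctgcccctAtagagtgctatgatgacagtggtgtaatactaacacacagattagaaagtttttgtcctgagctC
Outside the coding part the picture was similar. The RefSeq promoter windows of Gm2042 (chr12:87954230-87954529, GRCm38.p6) and Oog1 (chr12:87602415-87602714) differed by 1 substitution over 300 bases. They run from 250 bases before to 50 bases after the RefSeq start. The Gm2042 window lies inside the gene span given above, so by that annotation it is not upstream sequence. Each window held 3 matches on either strand to the E-box CANNTG, letters that 72.3% of 32851 promoter windows of that length also hold.

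The RFP libraries had 5906, 6070 and 6145 counts of Gm2042, the GFP Low libraries 1939, 2682 and 2680, and the GFP High libraries 2679, 2682 and 1999. The GFP-positive libraries ran from 89.9 CPM through a median of 99.0 to 109 CPM, and the RFP libraries held 223, 267 and 228 CPM. There was a wide gap between the arms and little spread inside the green one. The means were 99.4 ± 6.39 CPM (SD, n = 6) and 239.3 ± 23.8 CPM (SD, n = 3). In edgeR the log2 fold change was -1.27 (SE 0.09, 95% interval -1.45 to -1.09) with an adjusted p of 3.44e-06. On the authors' FPKM scale the levels were 32.1 ± 2.14 (SD, n = 6) and 76.6 ± 7.87 (SD, n = 3).

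The level of Gm2042 in bright and dim green eggs differed by less than the spread between libraries. GFP High libraries held 99.0 ± 9.65 CPM (SD, n = 3) and GFP Low libraries 99.8 ± 2.91 CPM (SD, n = 3), a log2 difference of -0.01 (SE 0.10, adjusted p = 0.990 in the edgeR fit of 3 groups), although eGFP differed 1.11 on the log2 scale between the same groups. Against RFP, which both contrasts share as control, the log2 fold change was -1.27 (SE 0.10) for GFP High and -1.26 (SE 0.10) for GFP Low. Among the RFP pools, RFP 1, with no eGFP count, held 223 CPM of Gm2042, RFP 2, with 8, held 267 CPM and RFP 3, with 16, held 228 CPM. Even in RFP 3 eGFP was at 0.594 CPM, beside 29.1 CPM in GFP-positive libraries. That is too little for these 3 values to show whether Gm2042 follows green message.

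The near copies of Gm2042 showed no such difference. Oog1, at 99.8% identity over 1801 bases of transcript, held 140.8 ± 16.0 CPM (SD, n = 6) in GFP-positive and 142.9 ± 9.57 CPM (SD, n = 3) in RFP libraries, and its log2 fold change was -0.02 (SE 0.10). Gm10436, at 99.2% identity, held 471.8 ± 30.3 and 488.4 ± 30.7 CPM, a log2 fold change of -0.05 (SE 0.07). The 95% intervals of the edgeR estimates were -0.24 to 0.19 for Oog1 and -0.21 to 0.11 for Gm10436, apart from that of Gm2042, and the difference between the genes was not itself tested. The more distant copies on chromosome 4 also overlapped between the arms, with C87977 (95% identity) at 443.7 ± 42.8 against 425.1 ± 53.2 CPM and Gm13023 (95.9%) at 861.6 ± 38.7 against 870.7 ± 77.8 CPM.

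Little of the Gm2042 or Oog1 transcript is its own. Of 1795 windows of 100 bases along the Gm2042 transcript, 101 (5.63%) occur in no other gene's annotated transcript. The figure was 141 of 1702 windows (8.28%) for Oog1 and 1095 of 1784 (61.4%) for Gm10436. The summed level of Gm2042, Oog1 and Gm10436 does not depend on how the reads counted for them were divided among the 3. It does not cover reads that were counted for another copy or for no gene. The sum ran from 666 to 757 CPM in GFP-positive libraries and from 809 to 931 CPM in RFP libraries, with means of 711.9 ± 37.3 (SD, n = 6) and 870.6 ± 60.6 CPM (SD, n = 3). Green pools were lower by 158.7 CPM, at 81.8% of the red level, and the arms did not overlap. Without Gm2042 the sum of the other two was 612.6 ± 38.6 against 631.3 ± 40.3 CPM, or 97.0% of the red level. With all 5 copies the sum was 2017 ± 72.1 against 2167 ± 179 CPM, or 93.1%. Whether the reads of each copy were placed correctly was not tested.

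The rest of the oogenesin family was examined as a list of 18 genes, 11 of which could be tested. One member, Gm2042, passed the threshold in the lower direction and none in the higher. The median log2 fold change of the 11 was -0.05, beside -0.00 over all genes tested. Oog2, on the same list, ranged from 120 to 145 CPM in GFP-positive and from 150 to 171 CPM in RFP libraries without overlap, and its log2 fold change was -0.24 (SE 0.08, unadjusted p = 0.0125, adjusted p = 1.00 in edgeR). Oog3 (0.01, SE 0.10), Pramef12 (-0.02, SE 0.06) and Pramef20 (0.09, SE 0.09) overlapped between the arms.

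No neighbour of Gm2042 was called. Within 1 Mb of Gm2042, 19 other genes were tested, 0 were called and 0 had groups that did not overlap. The 6 of them at 20 CPM or more had log2 fold changes between -0.20 and 0.20, and the smallest unadjusted p in edgeR was 0.186, for the DNA demethylase gene Alkbh1. The same held around the recombinase and the reporter. Of 16 genes tested within 1 Mb of Sycp3 and 23 within 1 Mb of Gt(ROSA)26Sor, 0 were called in either window, and Brk1 near Gt(ROSA)26Sor had the smallest p (unadjusted 0.0481).

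Sycp3 itself (chr10:88459569-88473236, plus strand) bears the CreERT2 insertion on 1 allele. It held 13.2 ± 3.14 CPM (SD, n = 6) in GFP-positive and 14.9 ± 4.90 CPM (SD, n = 3) in RFP libraries. The RFP libraries held 20.6, 12.2 and 12 CPM, the GFP Low libraries 12.2, 12.4 and 18.3, and the GFP High libraries 15.3, 9.40 and 11.4. The arms overlapped, and RFP 1 was the highest of all. The log2 fold change was -0.18 (SE 0.25, adjusted p = 1.00 in edgeR), and it was 0.13 without RFP 1. Gt(ROSA)26Sor, the noncoding gene that hosts the reporter, was counted 8 times in RFP 2 and 0 times in the other libraries.

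After Gm2042 and eGFP, the protein-coding genes with the smallest p mostly showed small shifts, and none passed the threshold. Strbp, which encodes a double-stranded RNA-binding protein of germ cells, ranged from 143 to 168 CPM with a median of 159 in GFP-positive libraries and stood at 197, 203 and 217 CPM in RFP. The arms were separate, at 157.8 ± 8.90 (SD, n = 6) and 205.4 ± 10.2 CPM (SD, n = 3), with a log2 fold change of -0.38 (SE 0.08, adjusted p = 0.656 in edgeR). GFP High and GFP Low had -0.35 and -0.41 against the shared RFP libraries. Every 100-base window of the Strbp transcript was its own.

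Further genes that leaned lower, by p, were Ubqln1, Klhdc2, Kbtbd8 and Rnf145. Ubqln1, a ubiquilin that carries ubiquitinated proteins to the proteasome, ranged from 255 to 347 CPM in GFP-positive libraries and from 385 to 397 CPM in RFP (log2 fold change -0.40, SE 0.09). Klhdc2, a substrate receptor of a cullin ubiquitin ligase, ranged from 1426 to 1805 CPM and from 1828 to 2040 CPM (-0.28, SE 0.07). Kbtbd8, a BTB-Kelch ligase adaptor, ranged from 633 to 776 CPM and from 801 to 842 CPM (-0.23, SE 0.07). Rnf145, a RING ligase of the endoplasmic reticulum, ranged from 9.45 to 14.6 CPM and from 16.7 to 22 CPM (-0.67, SE 0.20). The arms did not overlap for any of these 4 genes, and the adjusted p in edgeR was 1.00 for each, against 131 genes (0.826%) that were separate in this direction. As the genes were picked by their p in this same contrast, their separate arms are no further evidence.

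Genes that leaned the other way included Nudc, a dynein co-factor, Sap18, a subunit of the Sin3 deacetylase and exon-junction complexes, Dhx16, a spliceosomal helicase, and Myh2, a myosin heavy chain. Sap18 ranged from 350 to 451 CPM in GFP-positive and from 283 to 344 CPM in RFP libraries (log2 fold change 0.34, SE 0.09). Its copy Sap18b, identical over 532 aligned bases, had a log2 fold change of 0.24 (SE 0.08), and their sum was 667.9 ± 50.2 (SD, n = 6) against 542.5 ± 54.0 CPM (SD, n = 3) without overlap. Dhx16 ranged from 125 to 154 against 108 to 121 CPM (0.30, SE 0.09) and Myh2 from 40.7 to 48.9 against 31.4 to 37.2 CPM (0.40, SE 0.12). Nudc, at 1950 ± 201 against 1525 ± 216 CPM, overlapped between the arms (0.35, SE 0.10). For these 4 genes the adjusted p in edgeR was 1.00.

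Hspg2, which encodes the basement-membrane proteoglycan perlecan, and the unclassified transcript Gm37372 were the 2 rarest of the 20 genes with the smallest p. The RFP libraries had 140, 32 and 15 counts of Hspg2, the GFP Low libraries 4, 1 and 11, and the GFP High libraries 7, 0 and 0. Gm37372 had 14, 12 and 11 counts in the RFP libraries, 0, 1 and 1 in those of GFP Low and none in those of GFP High. The arms were separate for both genes, but RFP 1 alone held most of the Hspg2 counts, and without it the log2 fold change of Hspg2 went from -3.96 (SE 1.13) to -2.66. Neither passed the threshold (adjusted p = 1.00 in edgeR).

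**Figure D3:**
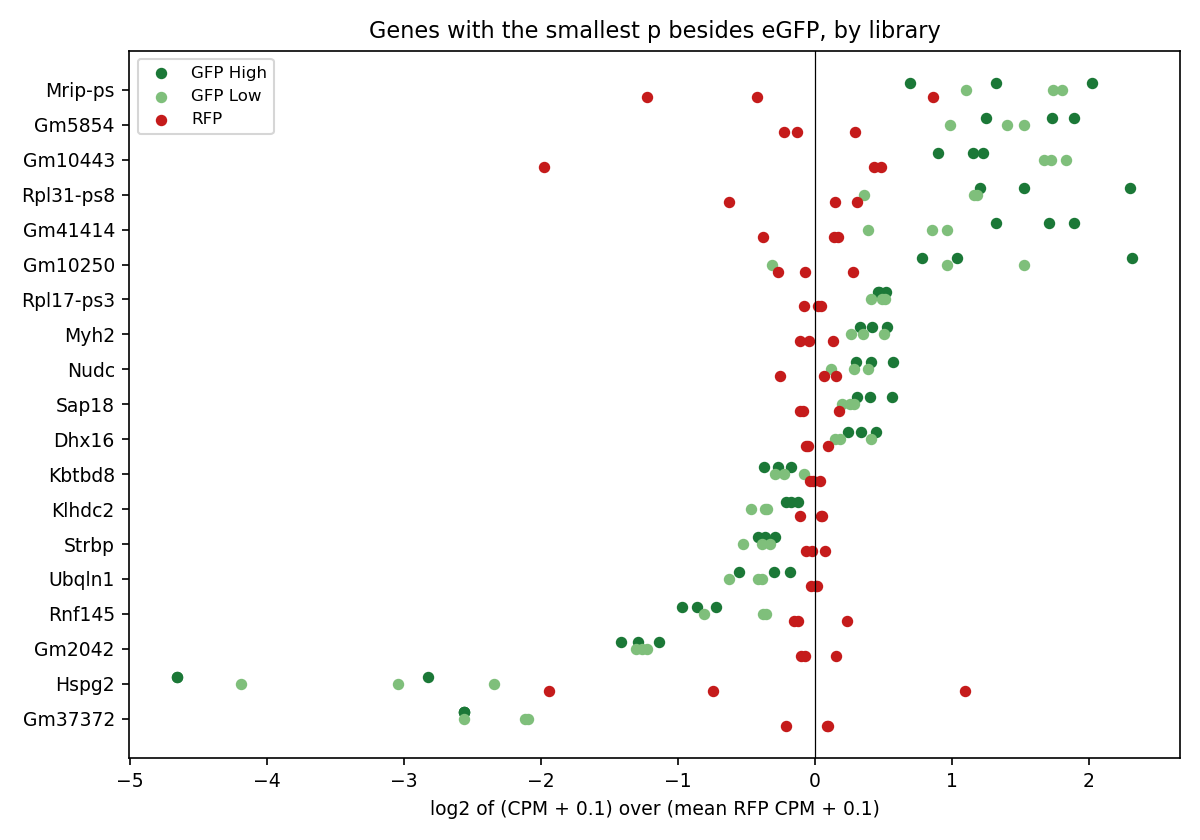
Log2 of the CPM of each library (with 0.1 added) over the mean of the RFP libraries (with 0.1 added), on the horizontal axis, for the 20 genes with the smallest p except eGFP, ordered by fold change on the vertical axis; each point is a library, dark green GFP High, light green GFP Low and red RFP. Green and red points are apart for most genes, with the smallest p for Gm2042, while Mrip-ps, Gm10250 and Nudc overlap.

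Pseudogenes were common among the genes with the smallest p. They made up 6 of those 20, all 6 higher in GFP-positive libraries, beside 1192 of 15857 genes tested (7.52%), of which 681 were higher. The median log2 fold change of all pseudogenes tested was 0.07 and that of protein-coding genes -0.01. A processed pseudogene is a copy of a spliced message pasted back into the genome. All of the 6 but Mrip-ps, which is annotated as unprocessed, were of this kind. Reads of a near copy are hard to tell from those of its parent, so the pseudogenes whose closest match was also among the genes tested were set beside it.

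Gm5854 (chr14:101981991-101982763, minus strand), a processed pseudogene with 98.6% identity to Rpl7a-ps7, which was not among the genes tested, had the smallest p after the 2 called genes. The RFP libraries held 2.95, 4.26 and 3.16 CPM of it, the GFP Low libraries 6.97, 9.32 and 10.1, and the GFP High libraries 13.1, 11.7 and 8.37. The arms were separate and the log2 fold change was 1.52 (SE 0.29, adjusted p = 0.464 in edgeR). In the authors' deposited tables, which compare GFP High and GFP Low with RFP one at a time, its adjusted p was 0.00565 and 0.00937. Gm5854 was not alone in this. For GFP High against RFP the adjusted p was 0.00124 for tdTomato, 0.00235 for Rpl31-ps8, 1.21e-04 for Gpx4-ps2 and 0.0435 for the lincRNA Gm41414. For GFP Low against RFP it was 3.88e-04 for Ubqln1, 0.00287 for Klhdc2, 0.021 for Strbp and 0.0255 for Rpl17-ps3. In the other comparison with RFP the smallest adjusted p of these genes was 0.0997, for Rpl17-ps3.

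Rpl17-ps3 (chr12:67510756-67511311, plus strand) was separate between the arms. It ranged from 62.4 to 67.1 CPM in GFP-positive and from 44.3 to 48.3 CPM in RFP libraries, with a log2 fold change of 0.48 (SE 0.10, adjusted p = 0.656 in edgeR). Its parent Rpl17, a large-subunit ribosomal protein gene, is 99.6% identical and leaned the other way (-0.35, SE 0.32), with 36.9 ± 15.8 against 47.1 ± 23.0 CPM. The sum of both was 102.2 ± 16.4 (SD, n = 6) and 93.9 ± 24.1 CPM (SD, n = 3), and the arms overlapped.

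For Rpl31-ps8 and Gm10443, too, the estimates of pseudogene and parent had opposite signs. Rpl31-ps8 is identical to Rpl31 over its whole length and had no window of its own. The log2 fold changes were 1.42 (SE 0.35) for the pseudogene and -0.35 (SE 0.19) for Rpl31, and the sums were 65.7 ± 7.59 and 65.8 ± 14.3 CPM, a log2 ratio of -0.00. Gm10443, identical to Rps28 over 210 bases, had 1.48 (SE 0.42) and its parent -1.28 (SE 0.67), and the sums were 22.4 ± 6.02 and 19.2 ± 7.03 CPM. Gm10250 had 1.27 (SE 0.39) and its more abundant parent Atp5h, a subunit gene of ATP synthase, 0.00 (SE 0.10), and the sums were 593.4 ± 57.1 and 550.4 ± 57.4 CPM. Mrip-ps had 1.54 (SE 0.43) and its more abundant parent Mprip, a regulator of myosin phosphatase, -0.00 (SE 0.08), and the sums were 240.2 ± 12.4 and 233.5 ± 24.4 CPM. In these 4 pairs the sums overlapped between the arms. Gm10250 held 73.5 against 30.5 CPM and Mrip-ps 10.8 against 3.72 CPM. The SD of Atp5h (58.2 and 53.3 CPM) and of Mprip (9.73 and 21.6 CPM) was larger than these shifts, so overlap of those 2 sums could not show whether the shifts cancel. Only the closest match was summed, while 13 genes were at 95% identity or more to Rpl31-ps8, 7 to Gm10443 and 22 to Rpl17-ps3. How reads that match both copies were divided was not tested.

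**Figure D4:**
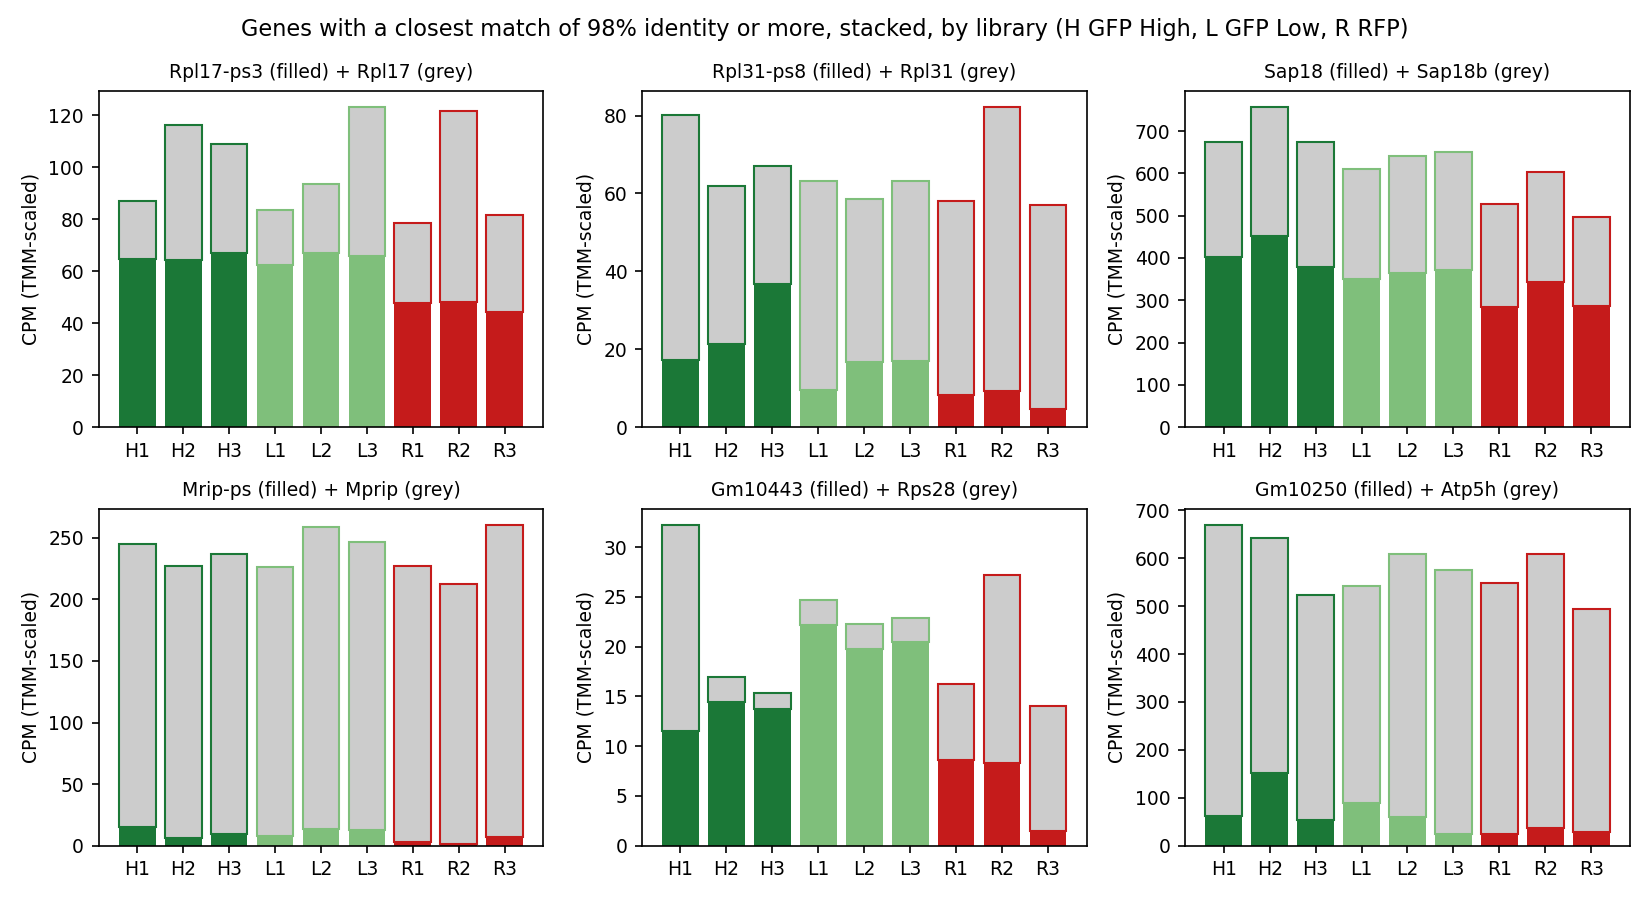
CPM (vertical axis, from 0) of a gene among the 20 smallest p other than Gm2042 (filled), with its closest match in sequence (grey) stacked on top. Each bar is a library, H for GFP High, L for GFP Low and R for RFP. The filled parts are generally taller in green than in red libraries, while the full bars overlap between the arms except for Sap18 with Sap18b.

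Genes of the programmes that make an egg were not among the calls. Of 14 tested genes of the egg coat and of fertilisation, 0 were called, and their median log2 fold change was 0.08. Zp1, Zp2 and Zp3, which build the zona pellucida, held 214.3 ± 22.8, 235.3 ± 36.7 and 274.5 ± 46.7 CPM (SD, n = 6) in GFP-positive and 208.8 ± 6.21, 225.8 ± 25.3 and 243.0 ± 18.8 CPM (SD, n = 3) in RFP libraries. Izumo1r, the sperm receptor Juno, had a log2 fold change of 0.12 (SE 0.08), and Astl, the protease that hardens the coat, 0.12 (SE 0.08). Of these 14 genes, 12 leaned higher and 2 lower, and the largest shift at 20 CPM or more was that of Zp3 (0.18, SE 0.12), whose level was highest in GFP High 1 at 366 CPM.

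Among 7 oocyte-secreted factors, which direct the surrounding granulosa cells, 0 were called and the median was -0.02. Gdf9 held 1626 ± 154 against 1527 ± 19.5 CPM (log2 fold change 0.09, SE 0.07) and Bmp15 819 ± 23.1 against 870 ± 70.3 CPM (-0.09, SE 0.06). The 8 genes of the subcortical maternal complex, which organises the egg cytoplasm, had a median of -0.01 and 0 calls. Ooep, one of its core members, stood at 704.0 ± 31.9 against 620.4 ± 46.5 CPM (0.18, SE 0.07, unadjusted p = 0.0164 in edgeR) and overlapped, while Nlrp5 (-0.04, SE 0.07), Padi6 (0.01, SE 0.08) and Tle6 (0.08, SE 0.09) lay close to 0.

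The 22 genes of metaphase II arrest also had 0 calls, a median of 0.03 and as many members higher as lower, 11 each. Mos, the kinase that holds the egg at metaphase, was at 73.6 ± 12.7 against 70.0 ± 3.72 CPM, and Ccnb1, the cyclin partner of Cdk1, at 367 ± 26.1 against 374 ± 22 CPM. For 16 oocyte transcription factors the median was -0.00 with 0 calls, and Nobox (0.08, SE 0.09), Lhx8 (0.14, SE 0.08) and Figla (-0.05, SE 0.18), which set up the oocyte programme, overlapped between the arms.

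The follicle activation pathway, in which Kit and PI3K signalling releases Foxo3 from the nucleus and wakes dormant oocytes, held 19 tested genes and 0 calls. Kit was at 248 ± 18.6 against 257 ± 31.6 CPM and Foxo3 at 814.9 ± 62.3 against 818.5 ± 122 CPM, and the median of the list was -0.03 with 5 members higher and 14 lower. Genes of the p53 and DNA damage response, which oocytes use to monitor broken DNA, numbered 20 with 0 calls and a median of -0.07. Chek1 had -0.11 (SE 0.08), Trp63, the oocyte guardian, -0.14 (SE 0.15), and Mdm2 0.04 (SE 0.09). Cdkn1a, a direct p53 target, was at 0.309 ± 0.349 against 0.320 ± 0.280 CPM, too low for its interval to exclude a change beyond 2-fold.

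DNA methylation and imprint genes, 16 in all, had 0 calls and a median of -0.01. Dnmt1, whose oocyte form keeps imprints after fertilisation, was at 3644 ± 98.1 against 3402 ± 236 CPM and was the 1 member with separate arms in the higher direction, beside 0.555% of all genes (0.10, SE 0.05, unadjusted p = 0.0844 in edgeR). Genes of maternal mRNA storage and decay, 22 tested, had a median of -0.04 and 0 calls, with Btg4, an adaptor for deadenylation, at 0.11 (SE 0.10) and Cnot6l, a deadenylase, at -0.15 (SE 0.07). The 17 antioxidant enzymes (median 0.03), the 11 NF-kB genes (0.07), the 13 mitochondrially encoded protein genes (0.09) and the 81 cytosolic ribosomal protein genes (0.03) had 0 calls too. Prdx2 (0.18, SE 0.08), mt-Co1 (0.18, SE 0.07) and Rps23 (-0.73, SE 0.24) had the smallest p of the antioxidant, mitochondrial and ribosomal lists, each overlapping between the arms. Over all 15 gene lists, Gm2042 was the only member called in edgeR and in the DESeq2 Wald test. At an unadjusted p under 0.05 edgeR had 2 members of the oogenesin and of the ribosomal list, 1 of the maternal complex, antioxidant and mitochondrial lists, and 0 of 9 further lists, beside 1.3% of all genes. Of the ribosomal genes, Rps28 (-1.28, SE 0.67) was at 20.7 CPM in GFP High 1, between 1.62 and 2.53 CPM in the other 5 green libraries and between 7.63 and 18.9 CPM in RFP, and edgeR called it once GFP High 1 was left out.

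**Figure D5:**
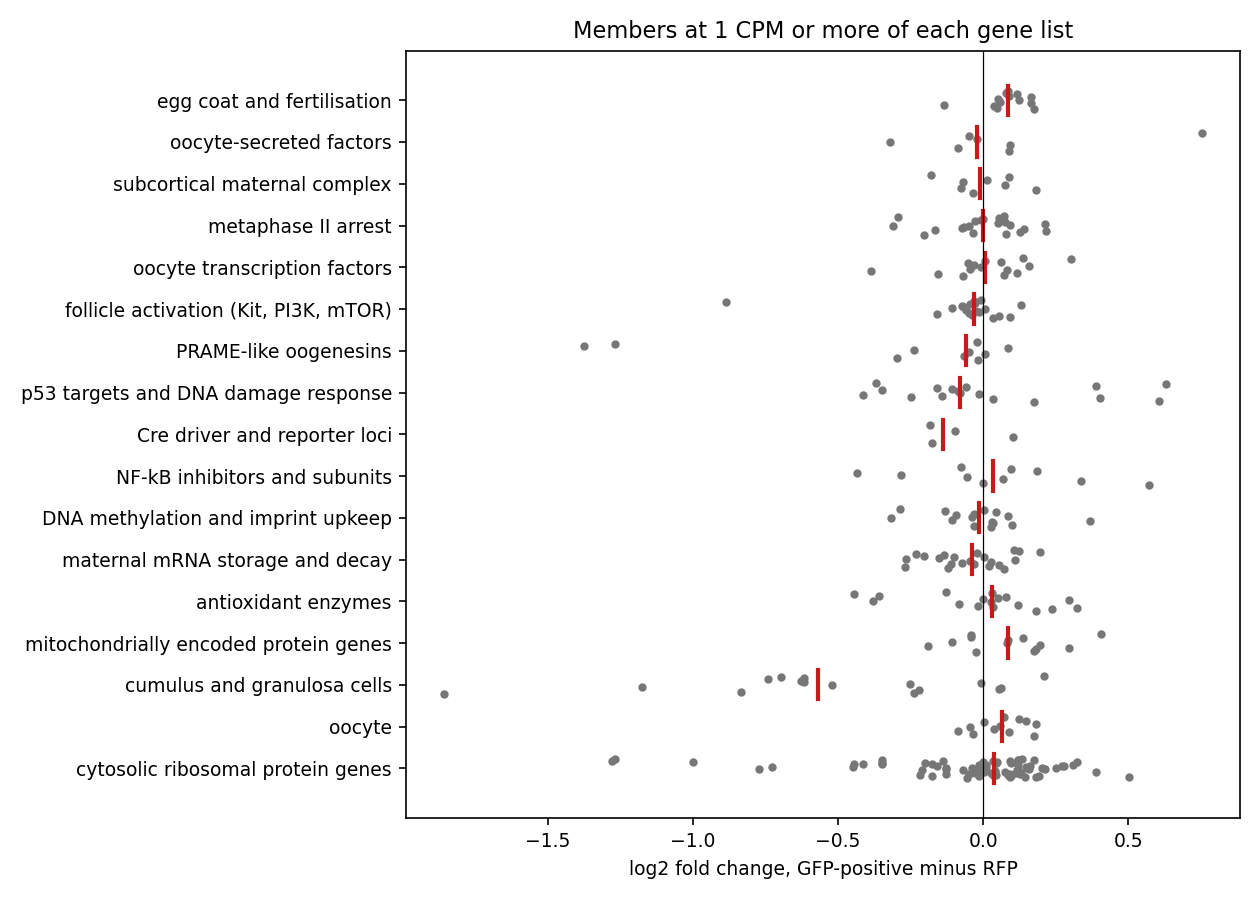
Log2 fold change, GFP-positive minus RFP (horizontal axis), of the members at 1 CPM or more of each gene list and of the cumulus and oocyte marker lists (vertical axis); each grey point is a gene and the red bar is the median of the points shown. The medians of the oocyte programmes lie close to 0, and Gm2042 is one of the 2 points below -1 in the oogenesin row.

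Composition of the libraries differed by less than the spread between them. Genes detected at 1 CPM or more numbered 12746 ± 215 (SD, n = 6) in GFP-positive and 12808 ± 117 (SD, n = 3) in RFP libraries (two-sided exact permutation test over 84 assignments, p = 0.690, adjusted p = 0.738 over 4 measures, smallest possible p = 0.0119). Mitochondrially encoded genes took 2.21% ± 0.109 and 2.26% ± 0.234 of counts (exact permutation p = 0.714), and ribosomal protein genes 0.485% ± 0.0384 and 0.469% ± 0.0927 (exact permutation p = 0.738). The summed cumulus and granulosa markers were at 217.1 ± 55.2 and 233.1 ± 65.0 CPM (exact permutation p = 0.726). Nr5a2 alone held 122.8 ± 20.6 and 117.7 ± 11.3 CPM of that, so the test of the sum says little about the rarer markers. Blood and oviduct markers were near the limit of detection, with Cd68 at 0.829 ± 0.506 against 0.982 ± 0.354 CPM and Epcam at 0.638 ± 0.334 against 1.40 ± 0.909 CPM. No cumulus or granulosa marker was called in edgeR, and 1, the steroidogenic gene Cyp11a1, had an unadjusted p under 0.05 (0.0307). Their median log2 fold change was -0.45, with 6 higher and 18 lower, on levels that were mostly below 5 CPM, and Tnfaip6, Ptx3 and Inha were highest in GFP High 1, GFP Low 1 and RFP 2. Without those 3 libraries the contrast called eGFP, Gm2042 and Gm28652, and Gm2042 had a log2 fold change of -1.18 (SE 0.11, adjusted p = 0.00409 in edgeR).

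GFP High and GFP Low differed from each other in 0 genes at an adjusted p of 0.05 in edgeR, with 1103 genes (6.96%) at an unadjusted p under 0.05, beside 206 (1.3%) for green against red. In the authors' DESeq2 results for this pair eGFP did pass that threshold (adjusted p = 0.00918). The spread between replicates was larger in GFP High, with a median coefficient of variation of 13.3% at 20 CPM or more, than in GFP Low (7.39%) or RFP (8.73%), and GFP High had the smallest pools. The part of this spread in the number of genes called was not tested.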

How the data were processed

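Per the submitters' processing notes, the tools were fastp, HISAT2 2.0.5, featureCounts 1.5.0-p3 and DESeq2 1.20.0 on mm10. The authors deposited 3 tables, each comparing a pair of groups. They hold raw read counts, a normalised signal (counts over size factors), FPKM values, and the authors' log2 fold changes with raw and adjusted p-values. Only the deposited counts were tested. All columns were matched to a library by name, with 0 columns left over. The tables were joined by gene identifier into 30153 genes by 9 libraries, and the counts of 178 genes missing from a table were set to 0.

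edgeR 4.0.16 (R 4.3.3) compared 6 GFP-positive with 3 RFP libraries by its quasi-likelihood test, with filterByExpr, TMM scaling, no covariate and Benjamini-Hochberg adjustment over 15857 genes. Standard errors come from the F statistic. Scripts were tested on simulated data. Alternatives used DESeq2 1.42.0 and limma 3.58.1. Transcript comparisons used GENCODE M21 (GRCm38), and promoter windows are from RefSeq (GRCm38.p6).

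Genes named are those called, the reporters and Cre locus genes, the 20 smallest p, and of each list the most abundant and most shifted members. Other genes of those lists, such as Zp1 or Mos, were named after their values were seen, and some members of the lists are not reported here. The members and lists were chosen with earlier results of these data known. The smallest library total was 19381677 counts, and a limit of 3 counts was used for detection. Same-numbered libraries deviated together no more than others (correlations -0.106 to 0.12 over 9 pairs, against -0.199 to 0.166 over 18), so replicate numbers were not taken to pair samples.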

Additional observations from a re-analysis of the deposited data

How the results depend on the processing

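The contrast called 2 genes, and the count moved most with the filter on low counts. Without that filter edgeR called 21 (15 higher, 6 lower), the DESeq2 Wald test called 5, adding Gm5854, Rpl17-ps3 and Strbp, and limma-voom called 1, Gm2042. eGFP then had an adjusted p of 0.994, and 0.368 in limma-voom with sample weights, which called Gm2042, Klhdc2 and Ubqln1. Leaving out 1 library at a time gave 2 to 3 calls, with Rps28 added without GFP High 1, and the GFP Low libraries alone against RFP gave 3. Fits without GFP High 1 and RFP 2, and without GFP Low 1 as well, were chosen after seeing the data and called 2 and 3. With the replicate block the contrast called 2 genes, and the block changed no call. GFP High against GFP Low called 0 genes in each edgeR fit run. Gm2042 was called in all 26 settings, with log2 fold changes from -1.31 to -1.18, and eGFP in 24. Sycp3 ranged from -0.32 to 0.13 when 1 library was left out, with the reversal to 0.13 without RFP replicate 1. Of 547 values for 22 named genes under 25 alternatives, 532 kept direction and side of the threshold. Only Gm2042 and eGFP among these genes were called in the main fit, so for the others the same side means that they stayed uncalled. The causes were not tested. Below 5 CPM few intervals lie within 2-fold, and the parts of depth and of spread between libraries in this were not separated.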

Other observations

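At 20 CPM or more, the largest shifts other than that of Gm2042 belonged to genes that varied widely inside a group. The lowest were the gene model Gm6367 (log2 fold change -0.86, SE 0.61), the nuclear noncoding RNA Malat1 (-0.76, SE 0.39), the H2A copy Hist1h2al (-0.61, SE 1.66) and the lincRNA Gm26917 (-0.54, SE 1.10). The libraries GFP High 1, GFP Low 1 and RFP 2 held 87.4, 88.4 and 135 CPM of Hist1h2al, which was below 0.5 CPM in each of the other 6 libraries. Those are the libraries with the most Tnfaip6, Ptx3 and Inha RNA of their groups. The highest were Gm10250 (1.27, SE 0.39), Gpx4-ps2 (1.21, SE 0.50), the respiratory chain subunit gene Uqcrb (0.69, SE 0.33), the translocon subunit gene Sec61g (0.61, SE 0.24) and 1700047I17Rik2 (0.61, SE 0.20). None of these 9 genes passed edgeR's threshold, and for each the arms overlapped.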
